A study of Mus musculus with 24 samples.

Results

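A set of 5 genes for acute-phase proteins that adipose tissue makes itself, *Saa3*, *Hp*, *Lcn2*, *Orm1* and *Cp*, were followed through the epididymal white adipose tissue (eWAT) of 24 male mice. The 5 genes were taken by their symbols from the 16730 genes of the deposited table, and all 5 were among the 15020 genes tested. The mice formed 4 groups of 6, *Lama4* fl/fl controls and *Lama4* AKO mice on chow, and the same genotypes on a high-fat diet (HFD). All mice, controls included, carried *Lama4* alleles with exon 3 flanked by loxP sites, and in the AKO mice a Cre driven by the adiponectin promoter removed that exon in adipocytes, so that other cells of the fat pad kept an intact gene. The labels call the strain LFKO and the control genotype wild type (floxed). Mice ate chow (diet 5015) or HFD with 45% fat for 20 weeks, and the labels give no age. In the paper's figure legends, chow-fed mice ate their diet from weaning, and HFD-fed mice started later and were followed to an older age. Diet and age therefore cannot be told apart. RNA was read by QuantSeq, which counts fragments from the 3′ end of transcripts. The deposited counts added up to between 5579590 and 18764516 per library. The 3′ end of *Lama4* lies outside the deleted exon, so its level, 32.3 to 196 counts per 1000000 (CPM) over the libraries, need not follow the genotype and does not check the labels. Its median was 91.6 CPM in chow-fed fl/fl and 113 CPM in chow-fed AKO mice. On HFD it was 78.6 CPM in fl/fl and 44.2 CPM in AKO mice. By quantitative PCR the paper reports less *Lama4* in eWAT of chow-fed AKO mice than of controls. The reason for this difference on chow was not tested. The libraries are separate mice, and p-values measure the spread between mice of a group.

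The acute-phase response is the change in circulating proteins that follows infection or injury. In the liver it is driven mainly by interleukin 6 acting through STAT3 and by interleukin 1 acting through NF-κB and C/EBP factors. Adipocytes and macrophages of fat make several of the same proteins, and in mice serum amyloid A3 is a form made largely outside the liver. *Saa3* encodes that lipid-binding apolipoprotein. *Hp* encodes haptoglobin, which binds free hemoglobin for uptake through CD163. *Lcn2* encodes lipocalin 2, which withholds iron from bacteria by binding siderophores. *Orm1* encodes orosomucoid 1, an abundant plasma glycoprotein that carries small lipophilic molecules. *Cp* encodes ceruloplasmin, a copper-containing ferroxidase that works beside the iron exporter ferroportin.

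*Saa3* lies on the reverse strand of chromosome 7 of the GRCm38 build, from 46711998 to 46715700, and the transcript taken from release 21 of the GENCODE mouse annotation has 4 exons. *Hp* lies on the reverse strand of chromosome 8 from 109575128 to 109579172, with 5 exons. *Lcn2* lies on the reverse strand of chromosome 2 from 32384633 to 32388252, with 6 exons. *Orm1* lies on the forward strand of chromosome 4 from 63344560 to 63348163, with 6 exons, just before its paralogs *Orm3* and *Orm2*. *Cp* lies on the forward strand of chromosome 3 from 19957054 to 20009145, with 19 exons, and overlaps *Hps3* on the opposite strand. Reads of *Orm1* may be shared with its neighbours: of the 251 windows of 50 bases in the last 300 bases of its transcript, 147 (58.6%) also occur unchanged in *Orm2* and 16 (6.37%) in *Orm3*. None of the 251 such windows of *Saa3* occurs in *Saa1* or *Saa2*.

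Promoter sequences of RefSeq, 250 bases before to 50 bases after a transcription start on GRCm38.p6, were found for 3 of the 5 genes, *Saa3*, *Lcn2* and *Cp*. They are shown because the inducible factors of the acute-phase response act at such proximal sites. Capitals mark matches to the C/EBP motif TTNNGCAA on either strand and, on the gene's own strand, the TATA motif TATAAA.

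Saa3, chr7:46715627-46715926, reverse strand: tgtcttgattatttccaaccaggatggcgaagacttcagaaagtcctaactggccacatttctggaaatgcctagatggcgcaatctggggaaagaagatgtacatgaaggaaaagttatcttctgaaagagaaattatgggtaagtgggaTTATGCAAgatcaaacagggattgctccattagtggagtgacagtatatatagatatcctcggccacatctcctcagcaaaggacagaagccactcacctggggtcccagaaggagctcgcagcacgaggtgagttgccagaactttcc

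Lcn2, chr2:32387690-32387989, reverse strand: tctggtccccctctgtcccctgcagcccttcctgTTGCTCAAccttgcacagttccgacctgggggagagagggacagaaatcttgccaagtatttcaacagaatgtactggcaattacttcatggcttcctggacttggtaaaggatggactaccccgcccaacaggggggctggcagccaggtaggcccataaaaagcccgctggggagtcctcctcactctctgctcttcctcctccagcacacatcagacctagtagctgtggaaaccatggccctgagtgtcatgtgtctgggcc

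Cp, the second of the listed starts, chr3:19956999-19957298, forward strand: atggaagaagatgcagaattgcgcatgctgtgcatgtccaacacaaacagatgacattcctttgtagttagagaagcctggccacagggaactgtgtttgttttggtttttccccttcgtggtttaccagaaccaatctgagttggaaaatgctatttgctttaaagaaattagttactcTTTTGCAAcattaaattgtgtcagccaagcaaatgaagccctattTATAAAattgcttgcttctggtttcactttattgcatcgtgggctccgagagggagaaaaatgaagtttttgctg

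Each of these 3 windows held 1 C/EBP match. In *Saa3* it ran from 99 to 92 bases before the start, in *Cp* from 70 to 63 bases before it, and in *Lcn2* from 216 to 209 bases before it on the opposite strand. Over all 32851 promoters of the table, 10.8% held such a match. The TATA match of *Cp*, from 25 to 20 bases before the start, is a motif found in 8.32% of all promoters. The other start of *Cp* held neither motif. No match to the STAT motif TTCNNNGAA (8.3% of all promoters) or to the NF-κB motif (4.51%) was present in these windows. The motifs were searched by their letters alone, and a match describes the sequence, not a bound factor.

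*Hp* was lower in the eWAT of HFD-fed than of chow-fed *Lama4* AKO mice, to 0.399 of the chow level. Its lowest, median and highest levels were 1730, 2820 and 3350 CPM in chow-fed *Lama4* fl/fl mice and 1990, 3320 and 5890 CPM in chow-fed *Lama4* AKO mice. HFD-fed *Lama4* fl/fl mice had 1700, 2100 and 2600 CPM, and HFD-fed *Lama4* AKO mice 1020, 1450 and 1810 CPM. Every HFD-fed *Lama4* AKO mouse thus lay below every chow-fed *Lama4* AKO mouse, whereas the fl/fl groups overlapped. Within the chow-fed *Lama4* AKO group, replicates 2, 3 and 4 held 4606, 4512 and 5887 CPM, and the other 3 mice lay near 2000, between 1988 and 2125 CPM. In the AKO mice, the log2 fold change of HFD against chow was -1.33 ± 0.259 (SE), with a nominal p of 3.2e-05 and an adjusted p of 0.0124 in edgeR's quasi-likelihood test. In *Lama4* fl/fl mice it was -0.36 ± 0.255, with a nominal p of 0.166. In bulk tissue, fewer cells of a type and less RNA per cell cannot be told apart.

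*Cp* showed the same division over the groups with smaller differences. The lowest, median and highest levels were 59.9, 119 and 127 CPM in chow-fed *Lama4* fl/fl mice, 83.6, 101 and 156 CPM in chow-fed *Lama4* AKO mice, and 58.2, 100 and 114 CPM in HFD-fed *Lama4* fl/fl mice. HFD-fed *Lama4* AKO mice had 40.4, 60.3 and 78.4 CPM, all below the lowest chow-fed *Lama4* AKO mouse. The log2 fold change of HFD against chow in AKO mice was -0.87 ± 0.206, with a nominal p of 0.000308 and an adjusted p of 0.0159. In fl/fl mice it was -0.18 ± 0.204, with a nominal p of 0.396. In a set of 19 mice, described with *Orm1*, it was -0.58 in fl/fl mice (p 0.0187, adjusted p 0.0601). Within each of the other 3 groups 1 mouse stood away from the rest, at 59.9 CPM (chow-fed fl/fl replicate 3), 156 CPM (chow-fed AKO replicate 6) and 58.2 CPM (HFD-fed fl/fl replicate 2).

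*Orm1* separated the mice of a group more widely. In chow-fed *Lama4* fl/fl mice its lowest, median and highest levels were 109, 183 and 243 CPM. In chow-fed *Lama4* AKO mice they were 73.2, 241 and 388 CPM, with replicates 1, 2 and 3 at 368.2, 388.1 and 333.5 CPM and the other 3 at or under 148.7 CPM. In HFD-fed *Lama4* fl/fl mice they were 80.1, 121 and 472 CPM, with replicates 4 and 6 at 472.2 and 369.3 CPM and the other 4 at or under 131.6 CPM. HFD-fed *Lama4* AKO mice had 49.4, 76.5 and 132 CPM and no mouse of the high kind. The log2 fold change of HFD against chow in AKO mice was -1.56 ± 0.455, the most negative of the 5 genes, with a nominal p of 0.0022 and an adjusted p of 0.0255. That p did not reach the nominal 0.001 required here, and it did without chow-fed AKO replicate 5 (log2 fold change -1.76, p 0.000559) or replicate 6 (-1.74, p 0.000798). DESeq2 (-1.58, p 0.00033), limma-voom with sample quality weights (-1.72, p 5.64e-05) and the set of 19 mice described next (-1.75, p 4.21e-05) also called it. These 3 fits called 8.75%, 23.9% and 15.7% of all genes, against 4.12% in the main fit. The fits without replicate 5 or replicate 6 called 7.8% and 4.73%. The diet difference in fl/fl mice was 0.22 ± 0.445 with all mice and -0.97 (adjusted p 0.0808) in a set of 19 mice that leaves out 5, the 2 high HFD-fed fl/fl mice among them.

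*Saa3* varied most within the chow-fed groups. Its lowest, median and highest levels were 28, 119 and 194 CPM in chow-fed *Lama4* fl/fl mice and 61.5, 144 and 438 CPM in chow-fed *Lama4* AKO mice. HFD-fed *Lama4* fl/fl mice had 55.4, 94.9 and 157 CPM, and HFD-fed *Lama4* AKO mice 36.9, 91.6 and 129 CPM. All 4 groups overlapped. The log2 fold change of HFD against chow was -1.05 ± 0.439 in AKO mice, with a nominal p of 0.0257 and an adjusted p of 0.0824, and it was -0.56 without chow-fed AKO replicate 2, the mouse at 438 CPM. In fl/fl mice it was -0.20 ± 0.435, with a nominal p of 0.65.

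*Lcn2* had the fewest reads of the 5 genes, 33 to 907 counts in a library, and the widest spread when averaged over the groups. Chow-fed *Lama4* fl/fl mice had a lowest, median and highest level of 3.4, 25.4 and 51.5 CPM, and chow-fed *Lama4* AKO mice 7.39, 16.1 and 34.5 CPM. HFD-fed *Lama4* fl/fl mice had 3.08, 14 and 31.8 CPM, and HFD-fed *Lama4* AKO mice 11.6, 16.4 and 24.6 CPM. The diet difference in log2 was -0.77 ± 0.508 in fl/fl mice (nominal p of 0.145) and -0.10 ± 0.51 in AKO mice (0.854). The 95% interval of the latter ran from -1.15 to 0.96, so a change of such size in either direction could not be told from none with these mice.

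**Figure D1:**
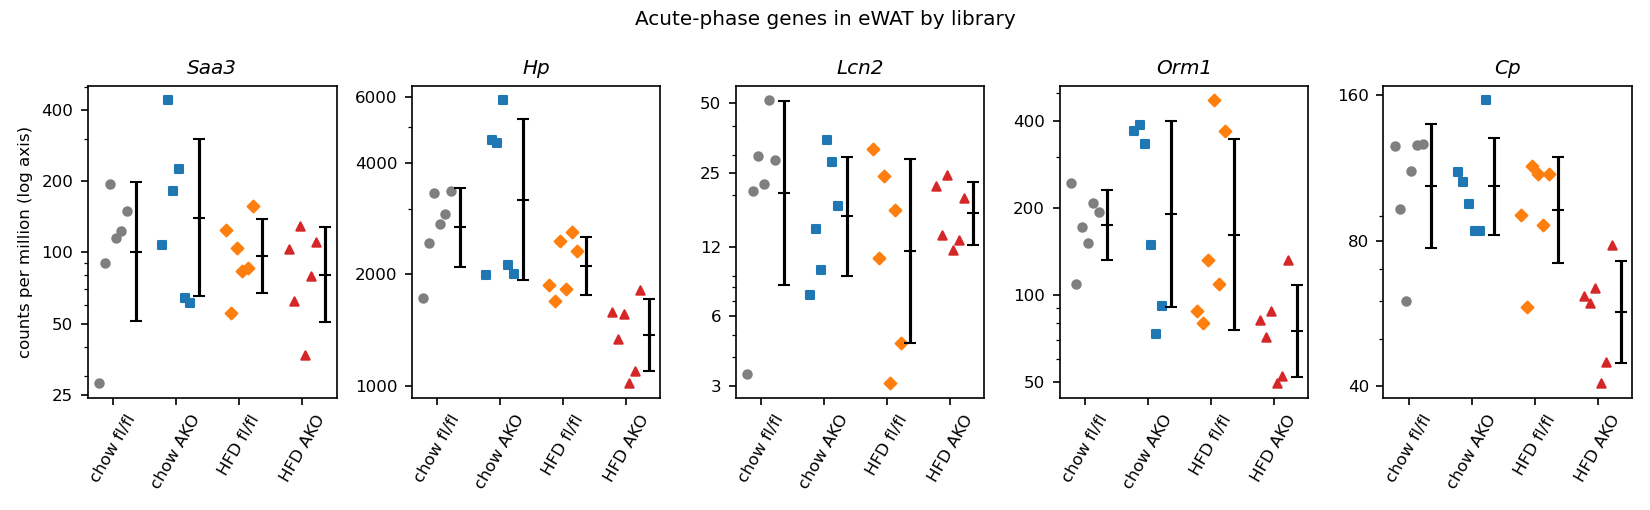
Level of each gene in CPM (log axis) in the 24 libraries. Points are mice in replicate order, and the black bar beside each group is the mean ± SD of log2 CPM (n = 6). *Hp* and *Cp* in HFD-fed *Lama4* AKO mice, at most 1810 and 78.4 CPM, lie below all chow-fed *Lama4* AKO mice, and *Orm1* in HFD-fed *Lama4* fl/fl mice is divided into 2 mice at 369.3 and 472.2 CPM and 4 lower ones.

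The spread between mice of a group can be set beside that of other genes. The within-group SD of log2 CPM was 1.05 for *Lcn2*, 0.848 for *Saa3* and 0.835 for *Orm1*, at percentiles 94.6, 87.8 and 87.2 of the tested genes. *Hp* (0.45, percentile 53.8) and *Cp* (0.371, percentile 41.5) were near the median gene at 0.422. From the lowest to the highest of all 24 mice, the level differed 16.7-fold for *Lcn2*, 15.6-fold for *Saa3*, 9.57-fold for *Orm1*, 5.79-fold for *Hp* and 3.87-fold for *Cp*.

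The first comparison asked what 20 weeks of HFD changed in each genotype. A gene was called when it differed at least 1.5-fold in either direction, with a nominal p no greater than 0.001, and reached a mean of 2 CPM or more in the higher group. In *Lama4* AKO mice, 2 of the 5 genes were called, *Hp* and *Cp*, where 4.12% of all genes tested were called. Both were called lower, as were 2.83% of all genes. The same 2 genes had all 6 HFD-fed mice below all 6 chow-fed mice, which held for 4.13% of all genes. In *Lama4* fl/fl mice none of the 5 was called, where 0.173% of all genes were, and none of the 5 had an unadjusted p under 0.05 in edgeR with all mice. None of them was called there by limma-voom or DESeq2 either. With limma-voom and sample quality weights *Lcn2* was at -1.32 in fl/fl mice (p 0.019, adjusted p 0.397) and was not called. The share of all genes depended on the mice kept: with the set of 19 mice it was 11.8% in fl/fl and 15.7% in AKO mice. None of the 5 was called in fl/fl mice with that set, but *Orm1* (p 0.0288) and *Cp* (p 0.0187) had an unadjusted p under 0.05 in edgeR.

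Averaged over both genotypes, 1 of the 5 genes was called, *Hp*, with a log2 fold change of -0.85 ± 0.182 (p 0.000102, adjusted p 0.0163). In this comparison 2.24% of all genes were called, and 1.47% were called lower. *Cp* had a log2 fold change of -0.52 ± 0.145 (p 0.00142, adjusted p 0.031), *Orm1* of -0.67 ± 0.316 (p 0.0436) and *Saa3* of -0.62 ± 0.308 (p 0.055). With the set of 19 mice, *Orm1* (-1.36) and *Cp* (-0.75) were called as well, in a fit that called 21.4% of all genes. The averaged comparison uses the same mice as the comparisons within genotypes and adds no independent evidence to them.

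The second comparison asked what loss of *Lama4* from adipocytes changed on each diet. Among chow-fed mice none of the 5 genes was called, where 0.113% of all genes were. The lowest unadjusted p of the 5 was 0.168 in edgeR with all mice. Neither limma-voom nor DESeq2 called any of them there. Log2 fold changes of AKO against fl/fl ran from -0.49 for *Lcn2* to 0.62 for *Saa3*. Both rested in part on single mice: *Saa3* was at 0.13 without chow-fed AKO replicate 2, and *Lcn2* at -0.18 without chow-fed fl/fl replicate 5. Among HFD-fed mice again none was called, where 0.173% of all genes were, and 3 of the 5 had an unadjusted p under 0.05 in edgeR, as did 14.8% of all genes. These were *Orm1* (-1.40 ± 0.453, p 0.00518), *Cp* (-0.71 ± 0.206, p 0.00216) and *Hp* (-0.60 ± 0.256, p 0.0273), with adjusted p of 0.291, 0.291 and 0.305. DESeq2 called 1 of the 5, *Cp* (-0.73, p 0.00061, adjusted p 0.0935), among 81 genes in all (0.539%), and limma-voom called none. With sample quality weights limma-voom called *Cp* (-0.94, p 4.85e-05) among 525 genes (3.5%). *Cp* also passed in edgeR without any 1 of 4 mice. HFD-fed fl/fl replicate 2 and HFD-fed AKO replicate 6 belong to the groups compared, and *Cp* was at -0.81 and -0.82 without them. Chow-fed fl/fl replicate 3 and chow-fed AKO replicate 6 do not, and only share the joint fit. Without them *Cp* was at -0.71 and -0.72. These 4 fits called 0.187% to 0.606% of all genes, and *Cp* did not pass with any other single mouse left out. With the set of 19 mice *Cp* was at -0.43 (p 0.0542) and *Orm1* at -0.22 (p 0.561), and neither was called.

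The third comparison asked whether diet acted alike in both genotypes. The interaction, the diet difference in AKO mice minus that in fl/fl mice, was called for none of the 5 genes by edgeR, limma-voom or DESeq2 and for 0.386% of all genes by edgeR. It was -1.78 ± 0.634 for *Orm1* (p 0.00983), -0.96 ± 0.362 for *Hp* (p 0.0138) and -0.69 ± 0.289 for *Cp* (p 0.0249), with adjusted p between 0.252 and 0.277. An unadjusted p under 0.05 was found for 15.6% of all genes. With the set of 19 mice the interaction was -0.78 for *Orm1* (p 0.142), -1.08 for *Hp* (p 0.0181) and -0.35 for *Cp* (p 0.228). With limma-voom and sample quality weights it had an adjusted p of 0.0157 for *Orm1*, 0.0284 for *Hp* and 0.0277 for *Cp*, and it was called for none of the 3, where 9.04% of all genes were called. In edgeR with all mice, *Saa3* (-0.85 ± 0.616, p 0.182) and *Lcn2* (0.67 ± 0.719, p 0.36) differed by less than their error allowed to resolve. With limma-voom and sample quality weights the interaction was 1.55 for *Lcn2* (p 0.0334, adjusted p 0.0883) and -0.8 for *Saa3* (p 0.163), and neither was called. The lower *Hp* and *Cp* after HFD are therefore called in AKO mice, while a difference from fl/fl mice was not called. HFD-fed *Lama4* AKO mice enter the diet, genotype and interaction comparisons alike, so their values are shared.

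**Figure D2:**
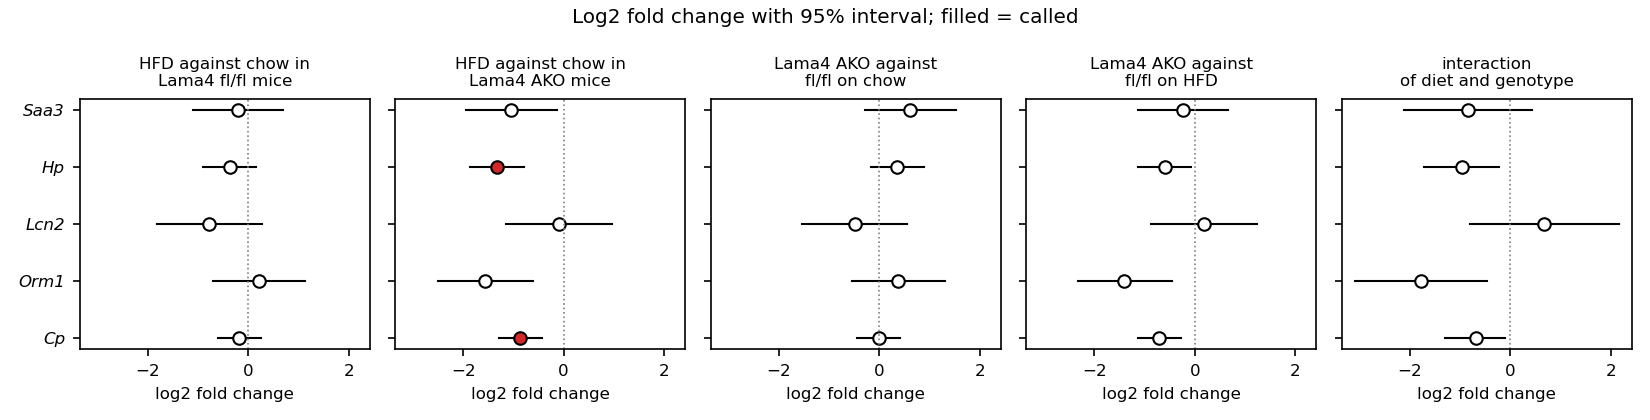
Log2 fold change (x axis) of the 5 genes in 4 comparisons and the interaction, with 95% intervals from edgeR over 24 libraries. Filled points passed the call, namely *Hp* (-1.33) and *Cp* (-0.87) for HFD against chow in *Lama4* AKO mice, and the open points of *Lcn2* lie between -0.77 and 0.67.

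Mice of a group that were high in *Saa3* were also high in *Hp*. After each group's mean was removed from log2 CPM, Pearson's r over the 24 mice was 0.82 (p 0.00012 from 100000 permutations within groups, adjusted over 10 pairs 0.0012) and Spearman's rho was 0.81 (p 0.00022, adjusted 0.0022). Without the 2 mice farthest from the median of *Saa3*, r was 0.79. Within single groups of 6 mice, r was 0.98 in chow-fed *Lama4* fl/fl, 0.85 in chow-fed *Lama4* AKO, 0.45 in HFD-fed *Lama4* fl/fl and 0.82 in HFD-fed *Lama4* AKO mice. *Saa3* had rank 3 among the 13257 genes with a symbol by likeness to *Hp*, and *Hp* had rank 6 for *Saa3*. It was the only 1 of the 10 pairs to pass an adjusted p of 0.05 with all mice.

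*Lcn2* and *Orm1* had a negative relation that did not pass the adjustment over 10 pairs, with an r of -0.55 (p 0.012, adjusted p 0.0602) and a rho of -0.45 (p 0.0575, adjusted p 0.144). The sign was not shared by all groups: r was -0.33 in chow-fed fl/fl, -0.75 in chow-fed AKO and -0.86 in HFD-fed fl/fl mice, but 0.75 in HFD-fed AKO mice. The adjusted p was at or under 0.0452 without any 1 of 7 mice (chow-fed fl/fl replicates 2 and 5, chow-fed AKO replicate 6, HFD-fed AKO replicates 3, 4, 5 and 6). Without the 2 mice farthest from the median of *Lcn2*, r was -0.45, and with the set of 19 mice it was -0.23 (adjusted p 0.549). *Orm1* and *Cp* had an r of 0.41 (p 0.0537), which rose to 0.61 with an adjusted p of 0.00335 without chow-fed AKO replicate 6. *Cp* showed next to no relation to *Saa3* (0.00) or *Hp* (-0.02). In HFD-fed *Lama4* AKO mice taken alone, *Hp*, *Orm1* and *Cp* ran together, with r of 0.97 to 0.98 for their pairs over 6 mice, given as a description.

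**Figure D3:**
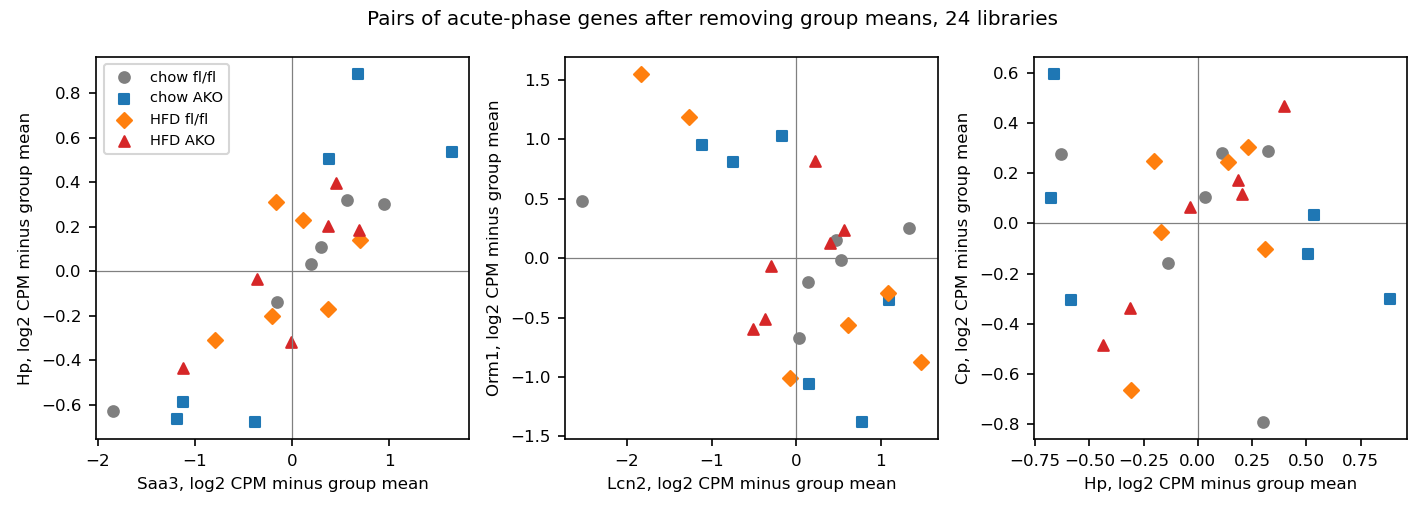
Log2 CPM minus the group mean for 3 pairs of genes, 1 point per mouse and 1 symbol per group. The points of *Saa3* and *Hp* rise together (r = 0.82), and those of *Lcn2* and *Orm1* fall (r = -0.55). Those of *Hp* and *Cp* show no trend over all mice (r = -0.02), with a sign that differs between groups.

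The genes most like each member over the 24 mice, by the same within-group r and given as a description, differed from member to member. For *Orm1* they were *Grtp1* (0.98), *Gstz1*, an enzyme of tyrosine breakdown, *Nudt4*, *Plaat3*, the adipocyte phospholipase, and *Dgat2*, which completes triglyceride synthesis (0.97 each). For *Lcn2* they were *Armc2* (0.94), *Pkib* (0.93), *Tlr1*, a receptor for bacterial lipopeptides, *Fbln7* and *Folr2*, a folate receptor of resident macrophages (0.91 each). *Saa3* ran with *Wfdc21* (0.90), *Atp1a4* (0.88), *Anxa8* (0.85), *Tph2* and *S100a8*, a calcium-binding alarmin (0.84 each). *Hp* ran with *Arl14epl* and *Cck* (0.82 each), with *Saa3*, and with *Tph2* (0.81) and *Anxa8* (0.80). For *Cp* they were *Filip1l* (0.85), *2700049A03Rik* (0.84), *Atrx* and *Rufy2* (0.83 each) and *Ddx60* (0.82). *Tph2* and *Anxa8* appeared for both *Saa3* and *Hp*, and no gene was shared between the lists of *Orm1*, *Lcn2* and *Cp*.

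Marker sums of the cell types in the pad moved with the members, each in its own way. The summed level of 10 adipocyte markers, all of them measured, ran with *Orm1* at an r of 0.92 and a rho of 0.93, and that of 10 macrophage markers ran against it at -0.83 and -0.87. Each of these p-values was 1e-05, the smallest that 100000 permutations give, and 0.000117 when adjusted over 35 relations. Without the 2 mice farthest from the median of *Orm1*, r was 0.91 and -0.84. *Cp* followed the adipocyte sum less closely (r 0.56, adjusted p 0.0215, rho 0.58, adjusted p 0.0291, and r 0.53 without 2 mice). *Lcn2* ran with the macrophage sum (r 0.77, adjusted p 0.0105) and against the adipocyte sum (-0.63, adjusted p 0.0161). These 2 relations of *Lcn2* rested in part on extreme mice, since their rho of 0.55 and -0.50 had adjusted p of 0.0641 and 0.0971, and r was 0.54 and -0.45 without the 2 farthest mice. The same held for its r of 0.67 with the neutrophil sum (adjusted p 0.016, rho 0.50 with an adjusted p of 0.0525, r 0.41 without 2 mice) and of 0.66 with the progenitor sum (adjusted p 0.0131, rho 0.53 with an adjusted p of 0.0641, r 0.45 without 2 mice). *Orm1* ran against the progenitor sum (r -0.65, adjusted p 0.0148, rho -0.59, adjusted p 0.0524, and r -0.67 without 2 mice).

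With all mice, *Saa3* and *Hp* showed little relation to the adipocyte sum (0.16 and 0.15) or the macrophage sum (0.02 and -0.03). For *Saa3* this rested in part on extreme mice. Without the 2 farthest from its median, its r was 0.36 with the adipocyte sum and -0.45 with the macrophage sum. For *Hp* the same values were 0.17 and -0.03. *Saa3* and *Hp* ran with the neutrophil sum, with r of 0.83 (adjusted p 0.000612) and 0.75 (adjusted p 0.00084). Their rho was 0.78 and 0.83, and their r was 0.68 and 0.74 without the 2 farthest mice. Of the 12 listed neutrophil markers 8 were measured, and *S100a8* made up most of the sum, at 17.1 to 277 CPM, against 1.61 to 19.2 CPM for its partner *S100a9*. The granule genes *Elane* and *Ltf* reached no more than 1.24 and 0.867 CPM and were at 0 in some mice. The red blood cell sum, of 7 globin and erythroid genes, ran with *Orm1* (r 0.86, adjusted p 0.000117) but not with *Hp* (0.29, adjusted p 0.391), the carrier of hemoglobin. With *Lcn2* it had an r of -0.56 (adjusted p 0.0298), a rho of -0.44 (adjusted p 0.125) and an r of -0.39 without 2 mice.

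Levels of these cell type markers also differed between groups. In HFD-fed *Lama4* AKO mice the adipocyte sum was 10500 to 31500 CPM, against 18900 to 66700 CPM in chow-fed *Lama4* AKO mice, 11100 to 74500 CPM in HFD-fed *Lama4* fl/fl mice and 26500 to 82900 CPM in chow-fed *Lama4* fl/fl mice. All 10 adipocyte markers had a negative log2 fold change for HFD in AKO mice, with a median of -1.34 against -0.00311 for all genes tested. Of the 10, 1 was called, *Lep* (-2.10, p 0.000406), where 4.12% of all genes were. All 10 macrophage markers had a positive one, with a median of 1.22, and none was called. The signs were the same for AKO against fl/fl on HFD and for the interaction. All 10 adipocyte markers were negative there, with medians of -1.02 and -1.1, and all 10 macrophage markers positive, with medians of 0.47 and 1.06. The neutrophil sum had medians of 211 CPM (21.3 to 307) in chow-fed fl/fl, 120 CPM (55.1 to 286) in chow-fed AKO, 59.5 CPM (52.2 to 94) in HFD-fed fl/fl and 67.8 CPM (42.1 to 106) in HFD-fed AKO mice. Of its genes only *S100a8*, which made up most of the sum, was called lower after HFD when averaged over genotypes (-1.39, p 0.000341). In that comparison 1.47% of all genes were called lower. Of the 6 neutrophil genes tested, 4 had a negative and 2 a positive log2 fold change there, with a median of -0.58. In AKO mice the progenitor marker *Pdgfra* was called higher after HFD (0.69, p 0.000991) and the mesothelial marker *Msln* lower (-2.36, p 0.000666), where 4.12% of all genes were called in either direction. The part of these marker lists in the lower *Hp* and *Cp* was not tested. The hepatocyte sum of 10 genes was 9.72 to 640 CPM and had an r with the 5 members between 0.17 and 0.35, and 2 measured epididymis genes reached 17.6 CPM together.

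**Figure D4:**
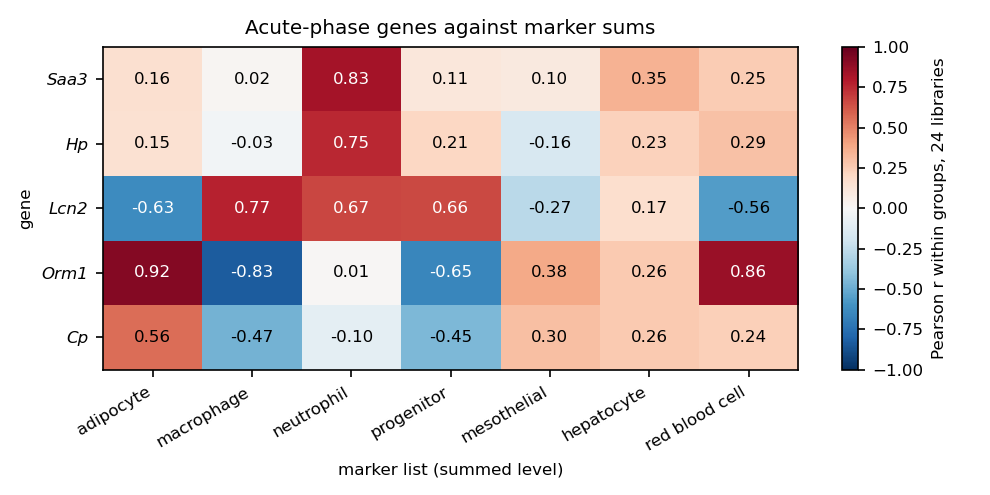
Pearson's r between each gene (rows) and the summed level of each marker list (columns) within groups over 24 libraries, with the color scale from -1 to 1. *Orm1* has 0.92 with adipocyte markers, *Lcn2* 0.77 with macrophage markers, and *Saa3* and *Hp* 0.83 and 0.75 with the neutrophil list.

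The libraries with high *Orm1* were those that stood apart on the first principal component of all genes. Chow-fed fl/fl replicate 1, chow-fed AKO replicates 1, 2 and 3 and HFD-fed fl/fl replicates 4 and 6 had scores between -91.8 and -47.9, below all others, and *Orm1* between 243.1 and 472.2 CPM, above all others. *Orm3*, named here after its values were seen, was at 18.65 CPM in the first of these, 25.23, 4.757 and 13.46 CPM in the chow-fed AKO mice and 29.6 and 18.86 CPM in the HFD-fed fl/fl mice. In the other 18 mice it did not exceed 2.386 CPM. *Lcn2* was at 3.4, 7.394, 14.36, 9.521, 3.079 and 4.603 CPM in the same 6 mice, and between 10.74 and 51.52 CPM in the rest, so that 5 of the 6 lay below all others.

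Of 21 other acute-phase genes in the list, 18 were tested. None was called in the diet comparison of either genotype, where 0.173% of all genes were called in fl/fl and 4.12% in AKO mice. The metallothionein *Mt2* was the 1 called lower when averaged over genotypes (-0.61 ± 0.151, p 0.000474), as were 1.47% of all genes. In AKO mice the list was split between 9 higher and 9 lower values, with a median log2 fold change of -0.07. The genes with the highest mean levels were complement *C3* (972 CPM, log2 fold change of HFD in AKO mice 0.38), *Mt1* (835 CPM, -0.15) and, after *Mt2*, the protease inhibitor *Serpina3n* (395 CPM, -0.70, p 0.00328). *Saa1* and *Saa2*, the main liver forms of serum amyloid A, averaged 0.578 and 0.312 CPM over the 24 mice. *Orm2* averaged 1.18 CPM, and *Orm3* had a log2 fold change of -2.85 ± 1 in AKO mice (p 0.00918), which was not called.

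The genes that switch the response on were read from lists. Of 16 inducing cytokines and their receptors 14 were tested. The genes of interleukin 6 and interleukin 1 alpha, *Il6* and *Il1a*, were absent from the deposited counts and could not be tested. None of the 14 was called in any of the 6 comparisons, where 0.113% to 4.12% of all genes were. The signal-transducing receptor chain *Il6st* (193 CPM) had a log2 fold change of HFD in AKO mice of 0.21, and the tumor necrosis factor receptors *Tnfrsf1b* (181 CPM) and *Tnfrsf1a* (179 CPM) had 1.09 (p 0.015) and -0.18. Of 13 kinases and transcription factors, all tested, none was called either, with *Jak1* (356 CPM) at 0.09, the NF-κB inhibitor *Nfkbia* (322 CPM) at -0.07 and the adipogenic *Cebpa* (223 CPM) at -0.69 (p 0.00129, adjusted p 0.0224). In that comparison 8 of the 14 cytokine and receptor genes and 3 of the 13 signalling genes had an unadjusted p under 0.05, where 39.8% of all genes tested did.

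Among 11 tested receptors and partners of these proteins, none was called in any comparison, where 0.113% to 4.12% of all genes were. The fatty acid transporter *Cd36* (2060 CPM) had 0.03, the scavenger receptor *Lrp1* (421 CPM) 0.89 (p 0.00345) and *Scarb1*, the receptor for high density lipoprotein (97.7 CPM), -0.01 for HFD in AKO mice. Of 16 iron and copper genes, 1 was called (4.12% of all genes in AKO mice and 2.24% averaged over genotypes), the iron exporter *Slc40a1*, the membrane partner of ceruloplasmin. It was higher after HFD in AKO mice (2.23 ± 0.469, p 8e-05, adjusted p 0.0124) and averaged over genotypes (1.32 ± 0.322, p 0.000422), opposite in sign to *Cp*. The ferritin chains *Fth1* (3690 CPM) and *Ftl1* (1820 CPM) had 0.96 (p 0.00948) and 1.3 (p 0.00226) in AKO mice, and transferrin, *Trf* (726 CPM), had -0.54 (p 0.0238).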

How the data were processed

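Bulk RNA of eWAT was sequenced by QuantSeq with 50-base forward reads, and the authors deposited raw counts per gene and library, aligned to GRCm38 with the Lexogen pipeline. The other deposited table gives a normalized signal, each library scaled by its own factor, and served here as the source of gene names and positions. The submitters' processing notes name R 4.0.3 and DESeq2 1.30. Each gene of the table has at least 72 counts in all.

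The main test was the quasi-likelihood test of edgeR 4.0.16 in R 4.3.3, on genes that reached 1 CPM in 3 or more libraries, with TMM factors. All 24 libraries entered one fit, in which every group had its own coefficient, and p-values received the Benjamini-Hochberg adjustment across the tested genes. Calls follow the study's criteria, with the mean of at least 2 read on the CPM scale. Levels are TMM-scaled CPM, and log2 CPM carries a prior count of 2. Correlations used permutations of libraries within groups. The fits and correlations were tested on simulated data.

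The 5 members, the gene lists and the tests were chosen with earlier results of these data known. Genes named are the members, the 5 genes most like each, genes of the pathway lists that were called, up to 3 more of the highest mean level per list, and *Lama4*. The exceptions are *Orm2*, *Orm3*, *Saa1*, *Saa2* and the markers, whose values bear on a member, and *Il6* and *Il1a*, which had no values.

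Alternatives were limma-voom (limma 3.58.1), the same with sample quality weights, DESeq2 1.42.0, RLE size factors, no filter, filterByExpr, only the 2 groups compared, a replicate block, other call rules, each mouse left out, and 19 mice without chow-fed fl/fl replicate 3, chow-fed AKO replicate 5 and HFD-fed fl/fl replicates 3, 4 and 6. That set was inferred earlier to be the study's own, and it was not stated by the labels. The 60 pairs of libraries within groups differed by at least 5.9 times counting error (chi-square per degree of freedom), so no duplicate was found among these pairs. Markers without a row in the table were not analysed here.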

Additional observations from a re-analysis of the deposited data

Results flagged for a closer look

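In a test for a single extreme mouse within each group of 6, run on 20 combinations of gene and group, *Lcn2* in chow-fed *Lama4* fl/fl replicate 1 stood out. Its level was 1.83 on the log2 CPM scale, against 4.39 to 5.69 in the other 5 mice, and its gap took up 0.664 of the group's range, over the 95% critical value of Dixon's test for 6 mice. Chance gives about 1 such case in 20. The diet difference of 3 genes was not the same in both genotypes at an unadjusted p under 0.05, with an interaction of -1.78 for *Orm1*, -0.96 for *Hp* and -0.69 for *Cp*, where 15.6% of all genes had such a p. None of the 3 passed after adjustment over all genes in edgeR, and with limma-voom and sample quality weights the adjusted p were 0.0157, 0.0284 and 0.0277. With 19 mice the interactions were -0.78, -1.08 and -0.35.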

How the results depend on the processing

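The calls of *Hp* and *Cp* for HFD against chow in *Lama4* AKO mice, and that of *Hp* averaged over genotypes, held under all alternatives run. Of 1040 refitted fold changes of the members, 1007 kept their direction and their side of the call, 14 passed in addition and 19 changed sign. With 19 mice, 3 members were called averaged over genotypes (3185 of 14863 genes). For *Lama4* AKO against fl/fl on HFD, 1 member was called by DESeq2 (81 genes) and by limma-voom with sample quality weights (525), against 26 genes in edgeR, and 0 to 1 with each mouse left out. The count of correlated pairs was 1 to 3 with each mouse left out. In Lama4 AKO mice the diet difference of *Lcn2* was 0.11 by limma-voom, 0.23 with quality weights, 0.05 with 19 mice and -0.26 to 0.19 with a mouse left out. In fl/fl mice that of *Orm1* was -0.09 by limma-voom, -0.97 with 19 mice and -0.21 to 0.38 with a mouse left out, and that of *Saa3* was -0.40 to 0.01. On HFD, AKO against fl/fl gave -0.20 for *Lcn2* with 19 mice and -0.03 to 0.53 with a mouse left out. On chow it gave -0.15 to 0.05 for *Cp*. The correlation of *Lcn2* and *Cp* was 0.17 with 19 mice and 0.07 without the 2 farthest mice, and that of *Hp* and *Cp* was 0.11 without the 2 farthest and -0.11 to 0.14 with a mouse left out. The causes were not tested.

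Replicate numbers did not pair the mice: over 36 same-numbered pairs, deviations correlated from -0.534 to 0.714, and 5 of 24 libraries were most like one of their own number. With the replicate block, 2 members were called in AKO mice (457 genes in all), 1 averaged over genotypes and 0 in each other comparison, as without it. With 6 mice a group and *Lcn2* at 33 counts in its lowest library, small differences of that gene could not be resolved.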
